A study of Mus musculus with 8 samples.

Results

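The 10 genes described here belong to the Notch pathway. They are the ligand genes *Dll1*, *Dll3* and *Jag1*, the receptor genes *Notch1* and *Notch2*, the receptor-modifying gene *Lfng* and the transcriptional repressor genes *Hes1*, *Hey1*, *Hey2* and *Heyl*. They were chosen by symbol out of 28001 counted features, and all 10 were found in the gene lists of all 8 libraries. Their levels come from single-cell libraries of mouse forelimbs (C57BL/6J) made with droplets that capture the 3′ end of transcripts, in which every captured molecule carries a unique molecular identifier (UMI). Of the 8 libraries, 6 held sorted cells of embryos that were homozygous both for CreERT2 at the *Hic1* locus and for a Rosa26 LSL-tdTomato reporter, at embryonic days (E) 11.5, 12.5, 13.5, 14.5 and 16.5. At E16.5 there was 1 proximal segment (distal stylopod, proximal zeugopod and the elbow between them) and 1 distal segment (distal zeugopod and autopod). At embryonic day 10 their dams had been given tamoxifen (7.5 mg) by gavage. The red reporter marks cells in which *Hic1*, a gene of mesenchymal progenitors (MPs), was active during the labelling window after that dose, together with their descendants. The study found this window to last a day or more. The sorted cells are therefore the progeny of cells that used the *Hic1* promoter, they carried CreERT2 at both *Hic1* alleles, and cells bearing blood or endothelial surface proteins had been gated out. The remaining 2 libraries, whole 1 and whole 2, are replicates of whole E11.5 limb cells, which the labels describe as reporter-positive and reporter-negative MPs and the methods of the study as all lineage-negative cells from embryos of the same alleles. Tamoxifen (7.5 mg at embryonic day 10) is given for these libraries too. Forelimbs of several embryos were pooled for a library, so that no value is that of 1 embryo, and nothing states that whole 1 and whole 2 came from separate litters.

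Notch signalling passes between cells that touch. Ligands of the Delta and Jagged families on one cell bind a Notch receptor on its neighbour, the receptor is cut, and its released intracellular domain joins the DNA-binding protein RBPJ to switch on genes of the Hes and Hey families, whose products repress other genes. Fringe glycosyltransferases such as Lfng change which ligand a receptor answers to. In limbs the pathway is known for holding muscle progenitors undifferentiated, for slowing chondrocyte and osteoblast differentiation, and for maintaining the mural cells (pericytes and smooth muscle) of vessels.

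In the GRCm38 annotation, *Dll1* lies at chr17:15367354-15376872, *Dll3* at chr7:28293553-28302238, *Notch1* at chr2:26457903-26516663 and *Jag1* at chr2:137081456-137116644. *Notch2* lies at chr3:98013527-98150361, *Lfng* at chr5:140607320-140615545, *Hes1* at chr16:30064384-30067796 and *Hey1* at chr3:8663359-8667256. *Hey2* lies at chr10:30832359-30842801 and *Heyl* at chr4:123233556-123249875. RefSeq promoter sequences (GRCm38.p6, 250 bases before the start of transcription) were at hand for 7 of the 10, with *Hes1*, *Hey1* and *Heyl* not among them. The letters TGGGAA, the core of the site that RBPJ binds, were searched on both strands (TTCCCA on the other strand), since RBPJ carries Notch input to target genes. Of 32841 promoters of the same length, 7091 (21.6%) held at least 1 match and 907 (2.76%) held at least 2. The promoters of *Hey2* (chr10:30842784-30843033, minus strand) and *Lfng* (chr5:140607091-140607340, plus strand) held matches and are shown, 5′ to 3′, with the matches in capitals.
Hey2: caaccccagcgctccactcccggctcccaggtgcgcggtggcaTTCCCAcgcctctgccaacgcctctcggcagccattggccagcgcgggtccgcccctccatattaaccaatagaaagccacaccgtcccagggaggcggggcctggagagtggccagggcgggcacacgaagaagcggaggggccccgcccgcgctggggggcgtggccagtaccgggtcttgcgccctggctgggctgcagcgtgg
Lfng: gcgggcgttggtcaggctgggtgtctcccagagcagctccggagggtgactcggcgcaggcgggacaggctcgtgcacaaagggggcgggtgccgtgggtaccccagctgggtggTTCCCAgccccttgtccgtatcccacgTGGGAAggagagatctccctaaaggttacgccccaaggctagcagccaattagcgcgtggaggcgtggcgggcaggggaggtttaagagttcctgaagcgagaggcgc
*Hey2* had 1 match, 207 bases before the start, and *Lfng* had 2, at 135 and 108 bases before the start. The windows of *Dll1* (2 promoters), *Dll3*, *Jag1*, *Notch1* and *Notch2* held no match to these letters. A match is a description of the letters, not a measured binding site.

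Cells with at least 3000 UMIs and at most 10% mitochondrial UMIs were kept, which were 53085 of 57469 barcodes, with between 3165 and 11109 cells in each library. Libraries held between 32957305 and 236408650 UMIs, and the median UMIs of a kept cell ran from 6788 at E13.5 to 18473 in the proximal segment at E16.5. No 2 libraries shared more than 54 barcodes, or 1.08% of the smaller one. At least 3 tdTomato UMIs were found in between 62.3% (E11.5) and 99.0% (E16.5 proximal) of the cells of a sorted library. In the libraries labelled as whole limb none of 5464 and none of 5682 cells reached 3, although their labels include reporter-positive cells, so they are described below as whole limb cells only. *Hic1* stood at 23.7 to 38.0 counts per 1000000 UMIs (CPM) in the sorted libraries and at 0.702 and 0.741 CPM in whole 1 and whole 2. Muscle cells were a feature of the whole limbs, with *Myod1* at 19.6 and 16.2 CPM against at most 0.794 CPM in any sorted library. Levels below are CPM of UMIs summed over cells outside keratinocyte clusters, with exact Poisson 95% intervals that cover counting error only. Each sorted group is 1 library, so values between stages or segments carry no test and no replicate error. Because 3′ UMIs are not scaled to length or capture, levels are compared between libraries for 1 gene and not between genes.

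*Dll3* and *Jag1* ran in opposite directions through the sorted libraries, and *Hes1* declined at each step from E11.5 to E16.5 proximal. In the study the dissociation enzymes changed between E12.5 and E13.5, and the reagent kit between E13.5 and E14.5. At those steps stage cannot be told apart from these changes for any gene. *Dll3*, a ligand that acts inside the cell on Notch in the same cell and is best known from the segmenting somites, stood at 43.7 CPM (41.5 to 46.1), 18.4 CPM and 13.7 CPM in the first 3 stages (E11.5, E12.5 and E13.5), at 3.24 CPM in E14.5 cells, and at 0.874 and 0.478 CPM in the proximal and distal E16.5 segments, against 2.55 and 3.39 in whole 1 and whole 2. The intervals of these 6 sorted libraries do not overlap, and those of both whole limb libraries overlap with that of E14.5. After thinning each cell to 3000 UMIs, 11.9% of E11.5 sorted cells (interval 10.8 to 13.1%) had a *Dll3* UMI, followed by 5.11%, 4.03% and 0.919% in the next 3 stages and 0.216% in the proximal E16.5 segment. Without thinning the share was 28.2% at E11.5 and 1.51% at E16.5 proximal. As a background, none of 612 epithelial-like cells of the proximal E16.5 segment had a *Dll3* UMI after thinning, which allows up to 0.490% of cells with a UMI at this depth, and the share of 0.216% lies below that limit.

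*Jag1*, which encodes a membrane ligand of the Jagged family, stood at 3.08 CPM (2.50 to 3.76), 4.59 CPM and 5.64 CPM in the first 3 stages, at 21.7 CPM in E14.5 cells, and at 28.2 and 28.8 CPM in the proximal and distal E16.5 segments, with 27.9 and 25.5 in whole 1 and whole 2. Both E16.5 segments overlap in their intervals, and the step between E13.5 and E14.5 was the widest. That step is also where the study's reagent kit changed from v2 to v3, so kit and stage cannot be told apart there. *Dll1*, the Delta ligand of muscle and presomitic tissue, was low in bulk everywhere, between 0.543 CPM (0.348 to 0.808) at E12.5 and 1.52 CPM (1.12 to 2.02) at E11.5, with 1.19 and 0.916 CPM in whole 1 and whole 2. At E11.5 it stood at 1.5 CPM both in mitotic-like and in early mesenchymal progenitor-like cells.

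The receptors did not follow the ligands. *Notch1* stood at 36.1, 52.9 and 18.8 CPM in the first 3 stages, at 24.1 CPM in E14.5 cells, and at 31.8 and 44.8 CPM in the proximal and distal E16.5 segments, with 23.3 and 25.6 in whole 1 and whole 2. *Notch2* stood at 59.0, 52.0 and 45.5 CPM over the same 3 stages, then at 98.9 CPM (97.2 to 101) in E14.5 cells, and at 50.7 and 39.0 CPM in the later segments, with 32.0 and 29.0 in whole 1 and whole 2. *Notch1* was thus highest at E12.5 and lowest at E13.5, whereas *Notch2* was highest at E14.5, the first library made with the later kit. *Lfng*, whose product adds sugar to the receptors, was low throughout, with its highest level of 6.63 CPM (5.89 to 7.43) at E12.5 and its lowest of 0.973 CPM (0.813 to 1.16) at E14.5, and 4.60 and 4.07 CPM in whole 1 and whole 2.

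*Hes1*, the repressor most widely used downstream of Notch, stood at 697, 639.9 and 349 CPM in the first 3 stages, at 283 CPM in E14.5 cells, and at 197 and 205 CPM in the proximal and distal E16.5 segments, with 415 and 416 in whole 1 and whole 2. *Hey1* peaked at 35.9 CPM (34.1 to 37.7) at E12.5 and was down to 11.3 and 11.2 CPM in the E16.5 segments, and both whole limb libraries, at 54.7 and 51.2 CPM, lay above every sorted one. *Heyl*, the Hey relative of vessel walls and muscle progenitors, had separate high values at E12.5 (5.04 CPM, 4.40 to 5.75) and E16.5 proximal (6.00 CPM, 5.67 to 6.35), against 1.30, 0.639 and 1.62 CPM in the E11.5, E13.5 and E14.5 libraries, 2.85 CPM in the distal E16.5 segment, and 1.56 and 1.38 CPM in whole 1 and whole 2. *Hey2*, known from arteries and the heart, stayed between 0.667 CPM (0.413 to 1.02) at E11.5 and 1.92 CPM (1.54 to 2.36) at E13.5 over the sorted libraries, with 0.974 and 0.760 CPM in whole 1 and whole 2.

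**Figure D1:**
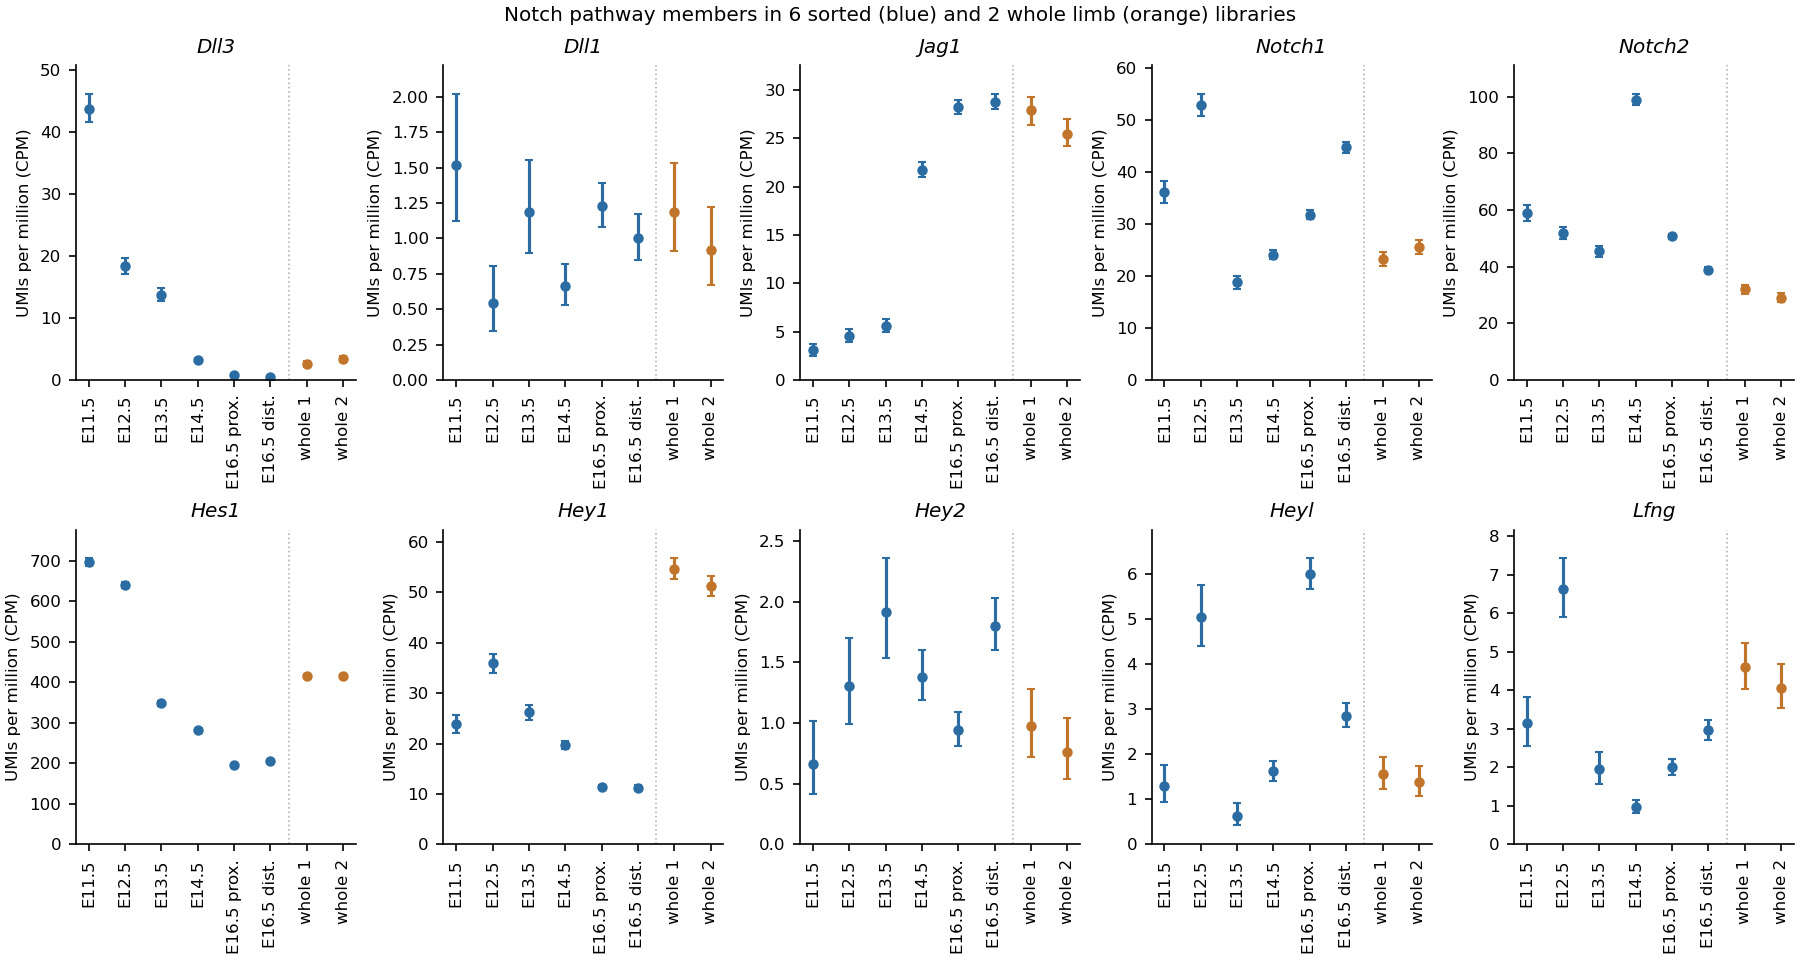
Level of each of the 10 genes in each library, in CPM on linear axes that start at 0, with sorted libraries in blue and whole limb libraries in orange. Points are 1 library each and bars are exact Poisson 95% intervals, which cover counting error only. *Dll3* goes from 43.7 CPM at E11.5 to 0.478 CPM at E16.5 distal while *Jag1* goes from 3.08 to 28.8 CPM.

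Between libraries made with the same kit, members were counted as higher or lower when they differed by at least 2-fold and the higher of both libraries reached 5 CPM. E11.5 limbs were dissociated with another enzyme than E13.5 limbs, so stage and dissociation cannot be told apart in the first of these pairs. Between E11.5 and E13.5, 6 of the 10 passed that filter, none was higher at E13.5, where 6.03% of the 10454 genes past the filter were higher, and 2 were lower, where 4.17% were. *Dll3* was 3.18-fold lower at E13.5 (2.89 to 3.50) and *Hes1* 2.00-fold lower (1.96 to 2.04). *Hes1* sits at the 2-fold limit, and *Notch1*, 1.92-fold lower (1.75 to 2.10), falls just short of it. The members' median log2 ratio was -0.66, against -0.09 over all genes past the filter. Of 67 Notch pathway genes in a list that includes the 10, 48 passed the filter, with a median of -0.05, none was higher and 3 were lower, the third being *Maml1*, a coactivator of the RBPJ complex, at 2.19-fold (1.99 to 2.41).

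Between E14.5 and the proximal segment at E16.5, where stage and segment cannot be told apart, 6 of the 10 again passed the filter. *Heyl* alone was higher, where 5.84% of 10298 genes were higher, at 3.70-fold (3.20 to 4.30). After thinning to 3000 UMIs its log2 ratio was 2.18 against 1.89, but it no longer passed the 5 CPM filter. The libraries also differed in their cells, as a pericyte-like cluster held 35 of 8381 cells at E14.5 and 356 of 11109 proximal ones. Its part in the *Heyl* difference was not tested. None was lower, where 6.82% of genes were, and *Notch2* came closest, 1.95-fold lower at E16.5. *Dll3* was 3.70-fold lower but under 5 CPM in both libraries. The members' median log2 ratio was -0.07, against -0.18 over all genes past the filter, and scaling by trimmed means (TMM) instead of totals moved all ratios of this pair up by 0.22. In the list of 67 genes, 49 passed, with a median of -0.32, 1 was higher and 4 were lower, among them the fringe *Rfng* (2.97-fold) and the Groucho corepressors *Tle4* (2.82-fold) and *Tle2* (2.49-fold).

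Between the segments at E16.5, 1 member passed 2-fold. Each segment was 1 library, counted with Cell Ranger 3.0.2 proximally and 6.0.1 distally, so segment and processing cannot be told apart. Of 6 members past the filter, none was higher distally, where 4.48% of 10153 genes were, and 1 was lower distally, where 2.57% were. This was *Heyl*, 2.10-fold lower (1.88 to 2.35). The segments also differed in their cells. A cluster without a name held 2590 of 10173 non-epithelial proximal cells and 121 of 8382 distal ones. It was led by *5330417C22Rik*, by the muscle fibre genes *Acta1* and *Tnnc2*, and by *Alx1*, *Entpd2* and *Vtn*. *Myod1* stood at only 0.718 CPM over the proximal library. Whether the muscle fibre RNA of this cluster came from its own cells was not tested. *Heyl* stood at 3.59 CPM in its proximal cells, and without that cluster, an alternative chosen after seeing the data, *Heyl* was 2.36-fold lower distally (2.11 to 2.65). The part of cell composition in the difference was not tested. With the keratinocytes left in, the log2 ratio of *Heyl* of -1.07 became -0.87, short of 2-fold, and after thinning to 3000 UMIs it was -1.09 but *Heyl* no longer passed the 5 CPM filter. The members' median log2 ratio was 0.01, against 0.10 over all genes past the filter, and in the list of 67 genes *Heyl* was the 1 gene past 2-fold among 47 that passed. *Notch1* had a log2 ratio of 0.49 and *Notch2* of -0.38, so the receptors leaned to opposite segments without reaching 2-fold.

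At E11.5 the question was which of the 10 genes set the sorted *Hic1*-lineage cells apart from the limb around them. Mesenchymal cells of the sorted library (3156) were compared with those of whole 1 (5085) and whole 2 (5330) by edgeR's quasi-likelihood test over 15066 genes with Benjamini-Hochberg adjustment. The sorted side was 1 library, assumed to vary like the whole limb pair, and the fit had 1 residual degree of freedom. All 10 members were tested. At an adjusted p under 0.05, 7 were higher in the sorted cells, where 26.8% of all genes were, and 2 were lower, where 26.5% were. So many genes differed between these libraries that a call by itself says little, and the sizes below carry the comparison. TMM scaling lowered all log2 ratios by 0.18 compared with totals.

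*Dll3* differed most in the positive direction, at 44.0 CPM in sorted cells against 2.76 and 3.65 in whole 1 and whole 2, a log2 ratio of 3.60 (SE 0.14) or 12.1-fold (edgeR adjusted p = 4.9e-147). *Jag1* differed as far the other way, at 3.10 CPM against 29.8 and 27.3, 10.4-fold lower in sorted cells with a log2 ratio of -3.38 (SE 0.17, edgeR adjusted p = 2.1e-85). Over the other settings tried the adjusted p ran up to 0.0131 for *Dll3* and up to 0.0107 for *Jag1*, both without the filter on low counts. The sorted library lay beyond both whole limb libraries for these genes by far more than the whole limb libraries differed from each other. The whole limb side was not matched for position and held distal cells, and *Jag1* differed by much less against its proximal cells, as given below. Against whole 2 alone the log2 ratio of *Dll3* was 3.39, and against whole 1 alone it was 3.83.

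The receptors were both higher in sorted cells, by less. *Notch2* stood at 59.1 CPM against 32.1 and 29.2, a log2 ratio of 0.77 (edgeR adjusted p = 2.1e-10), and *Notch1* at 36.3 CPM against 22.7 and 25, a log2 ratio of 0.43 (edgeR adjusted p = 0.00235). Among the repressors, *Hes1* was higher at 697 CPM against 429 in both whole limb libraries (log2 0.52, edgeR adjusted p = 1.8e-05), while *Hey1* was lower at 23.2 CPM against 47.8 and 43.7 (log2 -1.16, edgeR adjusted p = 1.1e-18). These 2 target genes of the same pathway thus went opposite ways, although *Hey1* turned when the whole limb side held proximal cells alone, as given below. The remaining calls rested on few UMIs, with *Dll1* at 1.5 CPM against 0.514 and 0.509 (edgeR adjusted p = 4.4e-04), *Heyl* at 1.25 CPM against 0.557 and 0.573 (edgeR adjusted p = 0.0200) and *Lfng* at 3.0 CPM against 1.76 and 1.80 (edgeR adjusted p = 0.0337). DESeq2 called none of those 3. *Hey2* was not called, with a log2 ratio of -0.66 (edgeR adjusted p = 0.141).

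Position along the limb moved with several of these values. The study found reporter-positive cells of E11.5 forelimbs mostly in proximal fragments, so proximal whole limb cells are the nearer match in position. When the whole limb side was limited to mesenchymal cells with a UMI of *Meis1* or *Meis2*, proximal genes, and none of the distal genes *Hoxa13* and *Hoxd13*, *Hey1* turned to a log2 ratio of 0.37 (edgeR adjusted p = 0.0332) and *Jag1* moved to -1.15 (edgeR adjusted p = 1.0e-05). *Dll3* moved to 4.12, while *Notch1* at 0.28 (edgeR adjusted p = 0.0646), *Hes1* at 0.23 (edgeR adjusted p = 0.0870) and *Heyl* at 0.33 (edgeR adjusted p = 0.593) were no longer called. When muscle and other cells were left in, *Lfng* turned to -0.63 and *Heyl* to -0.35. In the summed mesenchyme, the 11 myogenic markers stood at 3.38 CPM together in sorted cells against 10.8 and 11.1 in whole 1 and whole 2, with 1, 4 and 5 of them at 1 CPM or more. The 8 erythroid markers stood at 0.223 CPM against 139.7 and 6.26, and the 11 epithelial markers at 70.6 CPM against 54.6 and 50.1. Their part in the calls was not tested.

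Of the list of 67 pathway genes, 61 were tested, 22 were higher in sorted cells, where 26.8% of all genes were, and 14 were lower, where 26.5% were, with a median log2 ratio of 0.09 against 0.01 for all genes. Apart from the 10 members, the largest differences among those called higher were the Deltex genes *Dtx1* (9.36-fold) and *Dtx4* (5.18-fold), regulators of receptor trafficking, and *Dlk1* (4.29-fold), an atypical ligand, at 715 CPM against 148 and 145. Among those called lower they were, again apart from the members, *Nrarp* (2.38-fold), a feedback inhibitor, the coactivator *Maml3* (1.89-fold) and the corepressor *Spen* (1.67-fold). Position moved with some of these too. Proximal cells of whole 1 and whole 2 had *Nrarp* at 1.44 and 1.88 CPM, so that it was not lower in sorted cells (2.55 CPM) against them. The same proximal cells had *Dlk1* at 251 and 229.7 CPM.

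**Figure D2:**
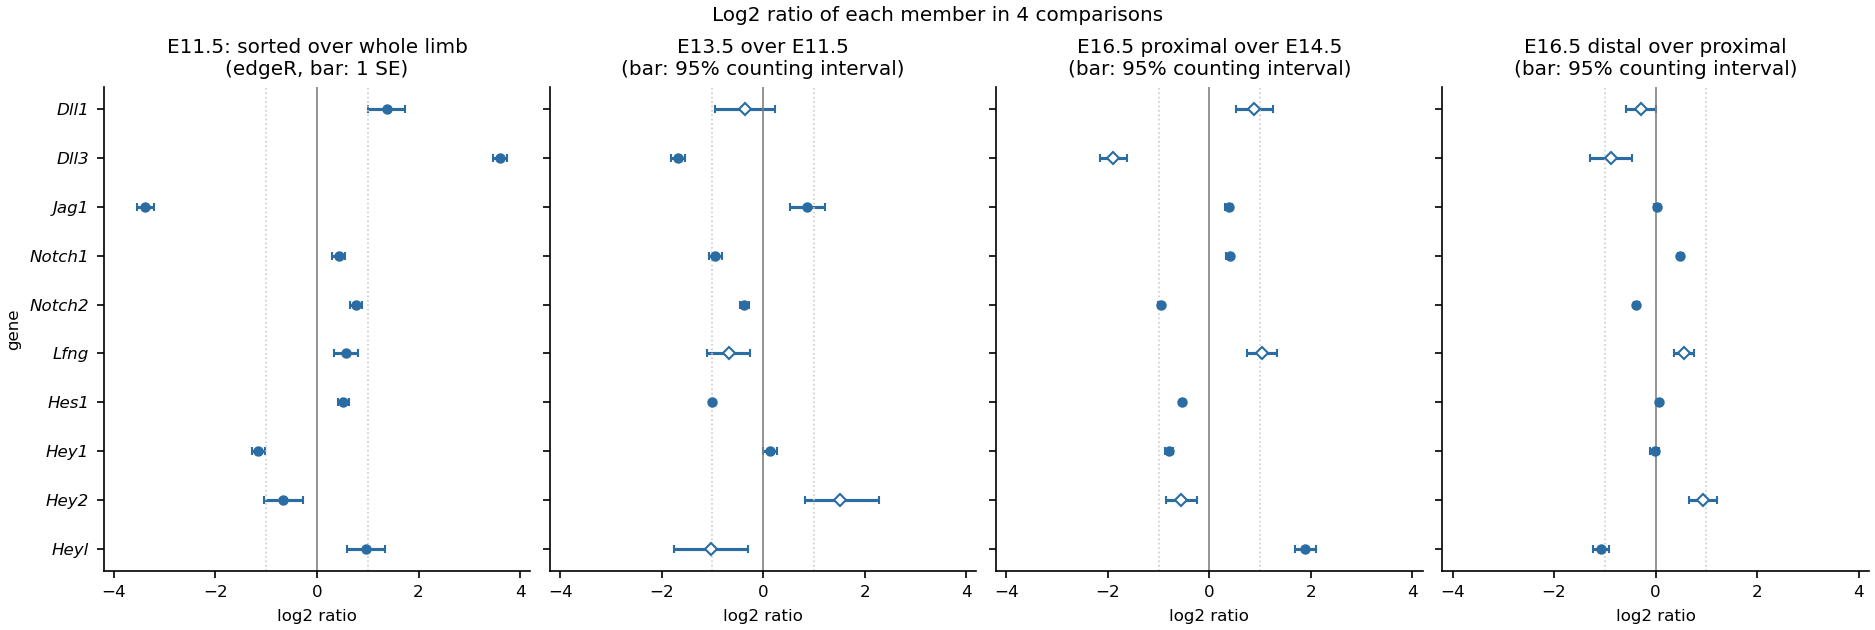
Log2 ratio of each gene in the E11.5 test (bars: 1 SE of the edgeR fit) and in the 3 comparisons of single libraries (bars: 95% counting intervals), with dotted lines at 2-fold. Open diamonds mark genes under 5 CPM in both libraries of a pair. *Dll3* lies at 3.60 and *Jag1* at -3.38 in the first panel, and *Heyl* at 1.89 and -1.07 in the last 2 panels.

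Within the whole limbs, each value could be seen in both replicates. Cells with a *Hoxa13* or *Hoxd13* UMI (1844 and 1817 cells) and those with *Meis1* or *Meis2* and neither of the former (1520 and 1717 cells) were set side by side. *Jag1* stood at 55.8 and 53.4 CPM in distal cells of whole 1 and whole 2 against 5.77 and 6.88 CPM in proximal cells, 9.66-fold (7.61 to 12.4) and 7.75-fold (6.28 to 9.67) higher. *Hey1* stood at 79.4 and 73.5 CPM in distal cells against 16 and 17 CPM, 4.98-fold (4.29 to 5.80) and 4.32-fold (3.76 to 4.98) higher. These genes were thus distal in both libraries, by a margin far beyond the difference between the libraries.

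*Hes1* had the opposite slope, at 366 and 373 CPM in distal cells against 542 and 558 CPM in proximal cells, 1.48-fold and 1.5-fold lower. The receptors leaned the same way as *Hes1*, with *Notch1* 1.42-fold (1.21 to 1.66) and 1.66-fold (1.44 to 1.92) lower in distal cells and *Notch2* 1.54-fold and 1.45-fold lower. *Nrarp* went with *Jag1* and *Hey1*, at 7.30 and 9.85 CPM in distal cells against 1.44 and 1.88 CPM. *Dll3* had 1.61 and 2.14 CPM in distal cells against 2.00 and 2.61 CPM, with intervals of the ratio that include 1 in both libraries. After thinning to 3000 UMIs the log2 ratio moved from -0.32 to -1.15 in whole 1 and from -0.29 to 0.16 in whole 2.

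*Dll3* in whole limbs was highest in a chondrocyte-like class led by *Sema3d*, *Matn4* and *Lect1* (649 and 739 cells), at 11 CPM (7.97 to 14.8) and 14.7 CPM (11.3 to 18.8), which is 5.93-fold and 6.18-fold the level in all other cells of the same library. That is still under the 44.0 CPM of the sorted mesenchyme at the same stage. The next level was that of a cluster without a name led by *Lect1* and *Foxc1*, at 5.49 and 8.75 CPM. The chondrocyte-like class also had *Notch1* at 42.0 and 46.2 CPM, against 14.4 and 14.8 CPM in distal mesenchyme-like cells.

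Muscle cells carried most of the *Lfng* and *Heyl* of the whole limbs. *Lfng* stood at 37.1 CPM (31.3 to 43.6) and 34.2 CPM (28.3 to 40.8) in myogenic-like cells, 19.7-fold and 18.5-fold the level of the other cells. *Heyl* stood at 12.9 and 12.1 CPM there against at most 1.19 CPM in the chondrocyte-like, distal or proximal mesenchyme-like classes. *Hey1* stood at 139.8 and 155 CPM, 2.94-fold and 3.56-fold the level of the other cells. *Hes1*, by contrast, was lower in myogenic-like cells (285 and 242 CPM) than in proximal mesenchyme-like cells (510.3 and 551 CPM).

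*Dll1* differed along the steps of muscle differentiation. Myogenic-like cells with a UMI of *Myog*, a gene of differentiating myoblasts, had *Dll1* at 21.0 CPM (27 UMIs in 102 cells of whole 1) and 17.5 CPM (17 UMIs in 87 cells of whole 2), while progenitors with *Pax3* or *Pax7* and no *Myog* UMI had 2.89 CPM (7 UMIs in 181 cells) and 1.27 CPM (3 UMIs in 187 cells). The ratios were 7.27 (3.09 to 19.8) and 13.7 (3.97 to 73.1). *Lfng* leaned the same way, at 50.6 and 53.4 CPM in *Myog*-positive cells against 31.8 and 26.3 CPM in progenitors. No difference beyond counting error was seen in either library for the member repressors *Hey1*, *Heyl* and *Hes1*. *Hey1* stood at 123 and 149 CPM in *Myog*-positive cells against 147 and 155 CPM in progenitors, and *Hes1* at 299.7 and 223 CPM against 286 and 248 CPM. *Heyl* stood at 10.9 CPM (14 UMIs) and 17.5 CPM (17 UMIs) against 11.6 CPM (28 UMIs) and 8.90 CPM (21 UMIs). The intervals of the *Hey1*, *Heyl* and *Hes1* ratios include 1 in both libraries, and so few *Heyl* UMIs could not exclude a difference. Another gene of the Hes family, *Hes6*, did differ, at 309.8 CPM (280.1 to 342) and 253 CPM (222 to 286) in *Myog*-positive cells of whole 1 and whole 2 against 159 CPM (143 to 176) and 124 CPM (110.0 to 139) in progenitors. *Notch1* was 1.88-fold higher (1.20 to 2.93) in *Myog*-positive cells of whole 2, and 1.03-fold (0.666 to 1.57) in whole 1. After thinning to 3000 UMIs the log2 ratios were 0.34 in whole 2 and 0.83 in whole 1, so the libraries changed order.

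**Figure D3:**
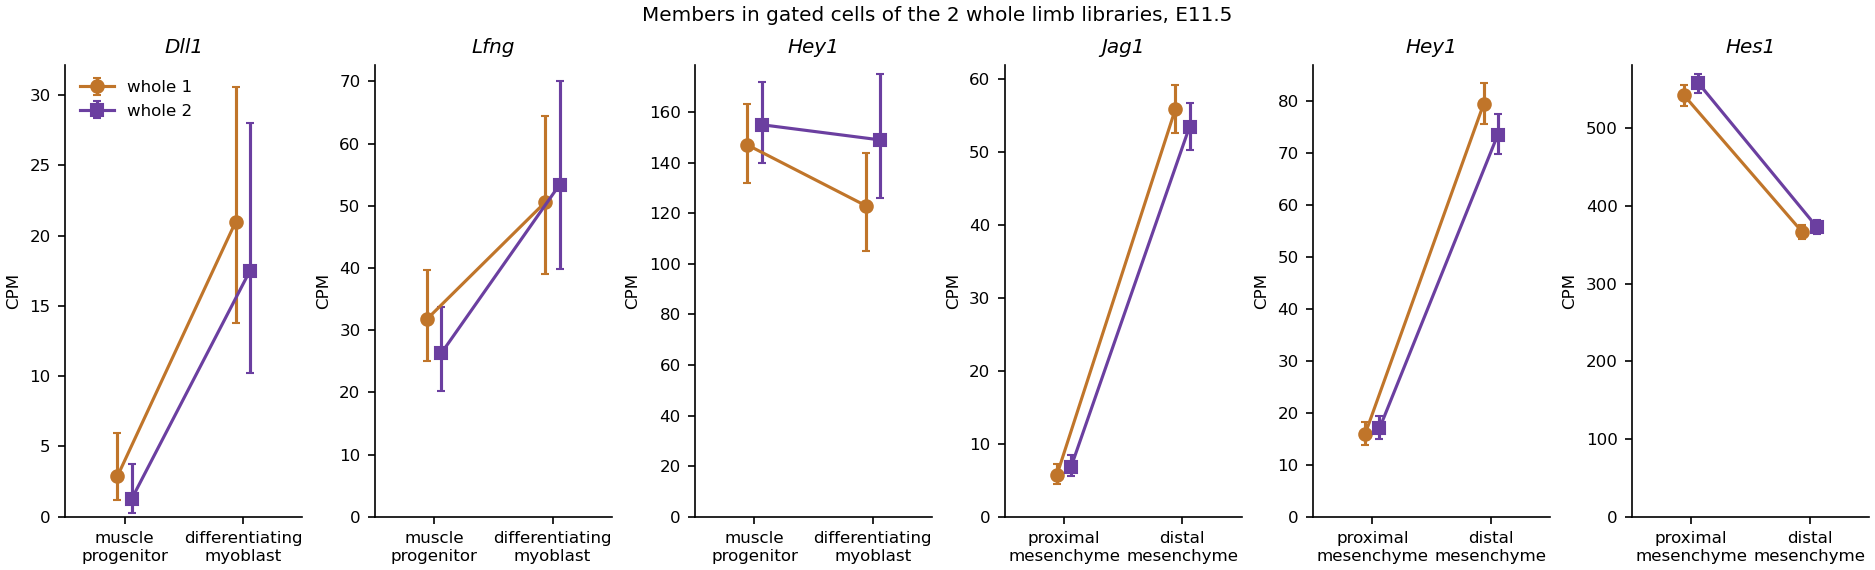
Levels in CPM, on axes that start at 0, in muscle progenitors and *Myog*-positive myoblasts (first 3 panels) and in proximal and distal mesenchyme (last 3 panels) of whole 1 (orange circles) and whole 2 (purple squares). Lines join the values of 1 library and bars are exact Poisson 95% intervals. *Dll1* goes from 2.89 and 1.27 to 21.0 and 17.5 CPM, and *Jag1* from 5.77 and 6.88 to 55.8 and 53.4 CPM.

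In the sorted cells, classes were named from markers, with all 67 pathway genes left out of the clustering, and a class against the rest is a description without a test. At E11.5 *Dll3* stood at 47.3 CPM in the main cluster of early mesenchymal progenitor-like cells (led by *Egr4* and *Igdcc3*) and at 40.6 CPM in mitotic-like cells. Levels in finer groups of these cells are not given here. At E12.5 the cluster of progenitor-like cells led by *Crtac1*, *Id1* and *Snai1* (2023 cells) had *Dll3* at 24.7 CPM, *Lfng* at 11.2 CPM (9.71 to 12.9), *Heyl* at 8.57 CPM (7.25 to 10.1) and *Hey1* at 57.4 CPM. At E14.5 *Hey1* stood at 43.4 CPM in distal mesenchyme-like cells and 4.25 CPM (3.42 to 5.22) in dermal fibroblast-like cells, and *Hey2* had the reverse order, at 0.433 and 5.37 CPM. The distal class held 2 clusters, with *Hey1* at 56.4 CPM in the one led by *Hoxa13*, *Hoxd13* and *Islr2* (1556 cells) and at 14.2 CPM in the one led by *Msx1* and *Pdlim3* (699 cells), near the 14.1 CPM of mitotic-like cells.

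*Notch2* was highest in the osteogenic/perichondrial-like class among the named classes of E14.5 and of the proximal segment at E16.5. At E14.5 it stood at 147 CPM (141 to 154) in osteogenic/perichondrial-like cells, 1.57-fold the level of all other non-epithelial cells, and at E16.5 proximal at 89.7 CPM (79.6 to 101) in that class, 1.79-fold. A distal mesenchyme-like cluster of E14.5 came close, at 139.9 CPM (132 to 148). Chondrocyte-like cells of E16.5 were not raised, at 45.8 and 40.2 CPM against 50.7 and 39.0 CPM over each segment. *Notch2* was lowest in pericyte-like cells, at 18.6 CPM (14.3 to 23.7) and 11.9 CPM (7.05 to 18.8) in the proximal and distal segments. *Notch1* had the reverse order, at 10.4 CPM in the osteogenic/perichondrial-like cells of E14.5 and at 84.4 and 102 CPM in the pericyte-like cells of E16.5.

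The pericyte-like cells of E16.5, 153 proximal and 62 distal cells led by the mural genes *Rgs5*, *Myh11* and *Acta2*, had the highest *Heyl* of any class. It stood at 103 CPM (92.3 to 114) in the proximal and 92.5 CPM (77.8 to 109) in the distal segment, 23.9-fold and 46.7-fold the level of the other non-epithelial cells. The class made up 1.5% and 0.740% of those cells but held 29.6% and 31.2% of their *Heyl* UMIs. Without them bulk *Heyl* stood at 4.30 CPM proximally and 1.98 CPM distally, 2.17-fold lower distally (1.90 to 2.48), an alternative chosen after seeing the data. As the class held similar shares of the *Heyl* UMIs in both segments, leaving it out could move that ratio little. The part of cell composition in the difference was not tested. Within the class the level did not differ between the segments beyond counting error, with a distal over proximal ratio of 0.901 (0.735 to 1.1). After thinning to 3000 UMIs, 25.5% and 24.2% of pericyte-like cells had a *Heyl* UMI, and none of 612 proximal epithelial-like cells did, which allows up to 0.490% of cells with a UMI at this depth and sets no limit on cells that express the gene.

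Other pathway genes shared this class. *Dll4* stood at 8.41 CPM (29 UMIs) proximally and 2.64 CPM (4 UMIs) distally, and *Notch4* at 5.22 and 0.661 CPM. In whole 1 and whole 2, *Dll4* stood at 21.3 and 16.5 CPM in endothelial-like cells. Those cells were led by *Cdh5* among others, which also led the pericyte-like cluster of sorted E11.5 to E16.5 proximal cells. Whether the class held endothelial cells or their RNA was not tested. *Notch3*, the receptor of mural cells, stood at 175 CPM (162 to 190.0) and 273 CPM (247 to 301) in the pericyte-like class. *Nrarp* stood at 133 and 122 CPM there, against at most 8.55 CPM in the perineurial-like, tenocyte-like and chondrocyte-like classes. It was not particular to pericyte-like cells, as 65 epithelial-like cells of E14.5 had *Nrarp* at 124 CPM (107 to 144). *Hey2*, low in bulk, stood at 9.28 CPM (6.35 to 13.1) and 11.2 CPM (6.54 to 18.0), the highest of the named classes in each segment. *Hes1*, however, was not raised there, at 155 and 108 CPM against 197 and 205 CPM over each whole segment.

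A second class with *Heyl* was the perineurial-like one (227 and 139 cells), at 49.5 and 27.8 CPM, which held 22.3% and 21.2% of *Heyl* UMIs. This class was named on 3 of its 5 markers, none of which is among its 10 leading genes. It was led by *Ccl11*, *Scg2* and the inflammatory chemokine gene *Cxcl5*. Its leading genes also held *Foxs1*, which is among the genes nearest to *Heyl* in pattern, as given below. The name follows the marker rule only and does not establish that these are perineurial cells. In the clustering of sorted E11.5 to E16.5 proximal cells, no cluster was named perineurial-like. There a pericyte-like cluster led by *Acta2*, with *Ccl11* among its leading genes, held 356 proximal cells. Whether it holds the same cells was not tested. The perineurial-like class had *Jag1* at 87.6 CPM (79.9 to 95.9) and 80.4 CPM (71.1 to 90.4), *Notch1* at 82.0 and 97.3 CPM, *Notch3* at 59.1 and 59.6 CPM, *Hes1* at 271 and 351 CPM and *Hey1* at 43.0 and 28.6 CPM. *Jag1* was also high in pericyte-like cells, at 76.3 and 91.2 CPM, and in fibroblast-like cells, at 57.8 and 75.1 CPM. It was low in tenocyte-like cells, at 9.54 and 7.25 CPM, and in dermal fibroblast-like cells, at 5.65 and 10.2 CPM.

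*Hes1* was low in tenocyte-like cells and, in the proximal segment, in chondrocyte-like cells. Tenocyte-like cells had 123 CPM at E14.5, then 66.3 and 70.3 CPM in the proximal and distal segments, which is 2.41-fold, 3.13-fold and 3.06-fold under the other non-epithelial cells of those libraries. At E14.5 a cluster without a name led by *Matn4* and *Mia* (570 cells) was lower still, at 88.8 CPM (82.4 to 95.6). Chondrocyte-like cells of E16.5 had 62.2 CPM (58.9 to 65.6) proximally, 3.42-fold under the other cells, but 161 CPM (152 to 169.9) distally, 1.29-fold under them.

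Some classes differed between the segments by more than the bulk, where *Hes1* was 1.05-fold, *Jag1* 1.02-fold, *Notch1* 1.41-fold and *Lfng* 1.48-fold higher distally. In chondrocyte-like cells *Hes1* was 2.59-fold (2.39 to 2.80), *Notch1* 2.74-fold (2.37 to 3.16) and *Jag1* 2.25-fold (1.77 to 2.87) higher distally. In fibroblast-like cells *Notch1* was 2.72-fold (2.45 to 3.04) and *Lfng* 5.41-fold (3.89 to 7.61) higher distally. In both classes different clusters held the cells of the segments. The proximal chondrocyte-like cells were mainly a cluster led by *Matn1* and *Scrg1* (884 of 1115), and the distal ones mainly a cluster led by *Cytl1* and *Cmtm5* (225 of 376). The proximal fibroblast-like cells were mainly a cluster led by *Wnt2* and *Ly6a* (1794 of 1807), and the distal ones mainly a cluster led by *Cldn3* and *Olfml2a* (576 of 744), where *Lfng* stood at 9.73 CPM (8.06 to 11.7). In the perineurial-like, pericyte-like and tenocyte-like classes, no member that reached 5 CPM in either segment passed 2-fold between them.

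**Figure D4:**
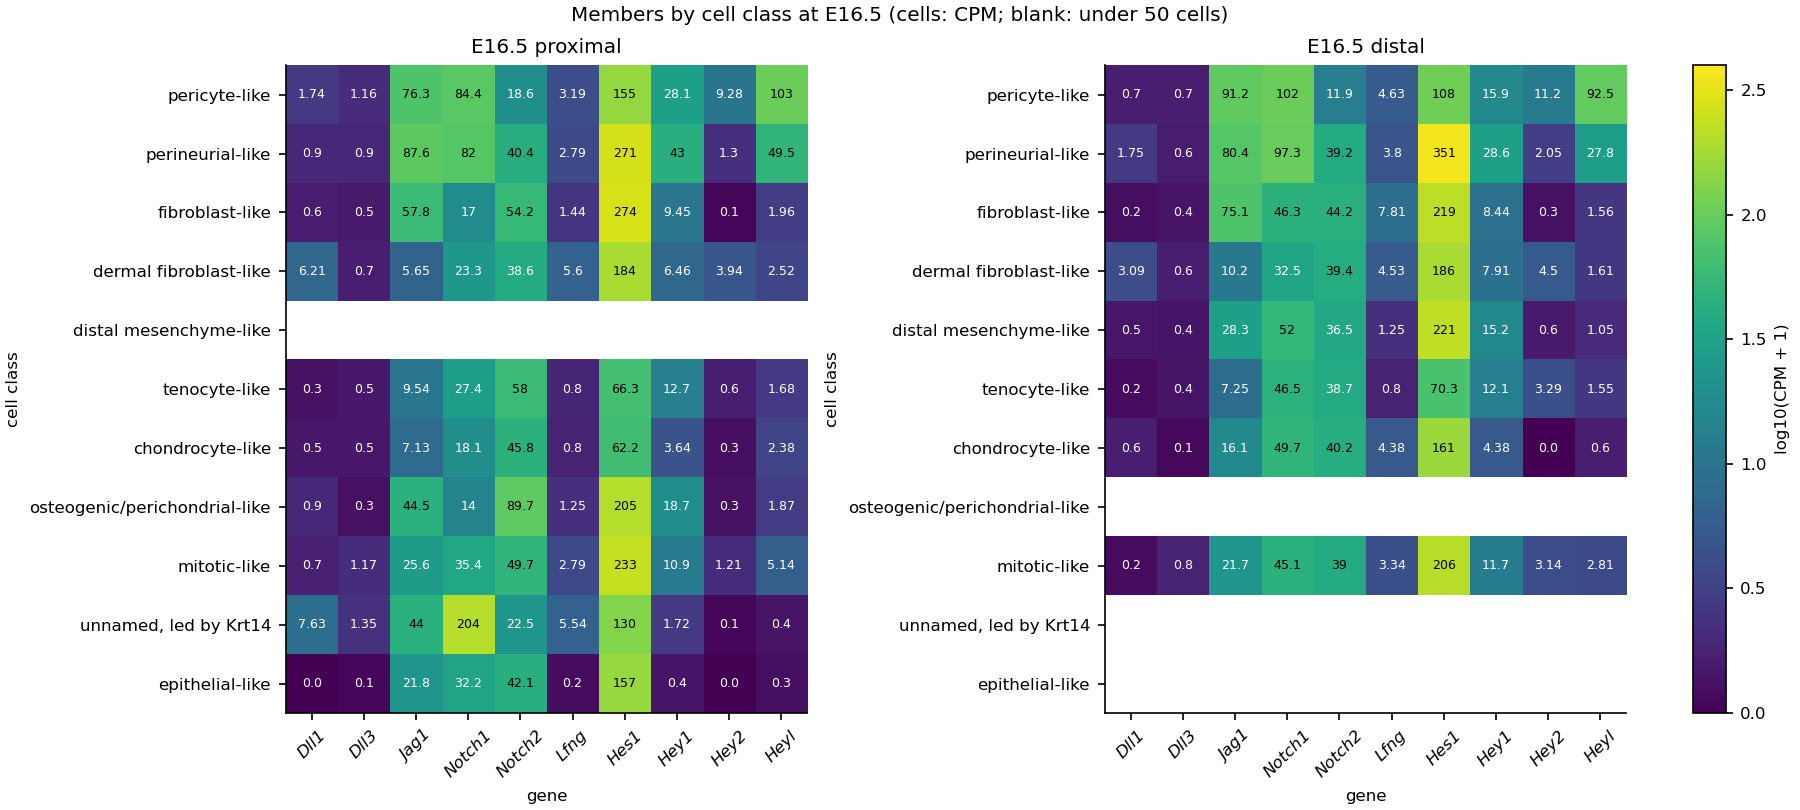
Level of the 10 genes (columns) in each class of cells (rows) of the E16.5 proximal and distal segments, printed in CPM and coloured by log10(CPM + 1), with classes under 50 cells left blank. *Heyl* is highest in the pericyte-like row (103 and 92.5 CPM), and *Notch1* in the row led by *Krt14* (204 CPM).

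Keratinocytes were left out of the bulk values, but 324 cells of the proximal segment led by the basal keratin *Krt14* were looked at. They had *Notch1* at 204 CPM (195 to 215), the highest of any class in the proximal segment, together with *Jag1* at 44.0 CPM, *Jag2* at 17.3 CPM and *Dll1* at 7.63 CPM, and *Hey1* at 1.72 CPM.

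*Dll1* at E16.5 was highest in 1 cluster of dermal fibroblast-like cells, led by *Hs3st6*, *Hoxb9*, *Cldn10* and *Rspo1*. That cluster had 826 proximal and 146 distal cells, with *Dll1* at 9.17 CPM (7.53 to 11) and 39.4 CPM (31.6 to 48.6). It made up 8.12% and 1.74% of non-epithelial cells and held 45.1% and 55.4% of their *Dll1* UMIs, the rest lying in other clusters. Within it the UMIs lay in few cells, 29 proximal and 20 distal, with up to 22 and 18 UMIs in 1 cell.

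Those cells were then compared with the rest of the cluster for genes of the dermal condensate, the cell cluster under a forming hair follicle, a choice made after the values had been seen. *Sox2* had a UMI in 18 of the 29 proximal cells and 17 of the 20 distal cells, against 18 of 797 and 15 of 126 cells without *Dll1*. *Sox18* had one in 16 of 29 and 17 of 20, against 45 of 797 and 25 of 126, and *Bmp3* in 19 of 29 and 19 of 20, against 16 of 797 and 21 of 126. *Notch1* was found in 16 of 29 and 17 of 20 of them, against 152 of 797 and 42 of 126. Within this cluster all 4 genes were thus found in a larger share of the cells with *Dll1*, and cells with *Dll1* in other clusters were not examined. Their median UMIs, 12870 and 11578, were below those of the other cells of the cluster, 13889 and 14277.5, and none of them was among the doublets removed in an alternative.

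The genes with the pattern most like each member were looked up over 39 profiles of class and library, which share cells' libraries and depth, by the correlation of log2(CPM + 1). *Heyl* was nearest to *Acta2* (r = 0.91), *Foxf1* (0.89) and *Foxs1* (0.87), and *Dll3* to *Nap1l2* (0.92), *Tmem200c* (0.85) and *Egfem1* (0.83). *Dll1* and *Lfng* were near each other (r = 0.72) and both nearest to *Rtn2* (0.78 and 0.77), with *Kremen2* (0.76) next for *Dll1* and *Ddr1* (0.71) also near *Lfng*. *Jag1* was nearest to *Hspb8* (0.82), *Pmm1* (0.73) and *Ccdc3* (0.72), *Notch1* to *Lrrc8b* (0.74), *Wasf2* (0.70) and *Cyb5r3* (0.68), and *Notch2* to *Deaf1* (0.83), *Pabpn1* (0.81) and *Dpp7* (0.81). Among the repressors *Hes1* was nearest to *Fbxw5* (0.82), *Tle3* (0.81) and *Cpsf3* (0.79), *Hey1* to *Dynll2* (0.79), *Pcbp4* (0.79) and *Tomm70a* (0.78), and *Hey2* to *Cisd3* (0.81), *Ppp2r2c* (0.77) and *Pde7b* (0.77). Of these neighbours *Tle3* alone, besides the members, is in the list of 67 pathway genes. Such a correlation can rest on the few profiles in which a gene is high. *Dll1*, for instance, stood at 16.6 CPM (24 UMIs) in 65 epithelial-like cells of E14.5, and *Kremen2* is among the leading genes of the *Krt14*-led cluster. How far each correlation rests on single profiles was not tested.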

How the data were processed

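UMI counts were summed per library and class of cells. The authors deposited a matrix of unscaled UMI counts for each library, made with Cell Ranger (3.0.2 for 5 sorted libraries, 6.0.1 for E16.5 distal, not given in the whole limb headers) on a modified mm10 reference. Per the methods of the study, the kit was v2 up to E13.5 and v3 afterwards, and E11.5 and E12.5 limbs were dissociated with another enzyme than later ones.

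Cells with at least 3000 UMIs, the filter of the study, and at most 10% mitochondrial UMIs, a limit taken from the rule that chose the genes, were clustered without the 67 pathway genes (2000 variable genes, 50 components, 25 neighbours, Leiden at resolution 1, leidenalg 0.10.2) in 3 sets: sorted E11.5 to E16.5 proximal, both segments of E16.5, and all 3 libraries of E11.5. A cluster was named when at least 3 markers of a class were raised, unless its 10 leading genes held more markers of another class or it was led by muscle fibre genes. A Krt14-led cluster without a name was put with the epithelial cells after it had been seen. Scrublet's own threshold marked under 0.5% of cells in 7 of 8 libraries, so the highest-scoring 0.8% per 1000 cells were removed as an alternative only. A gene at 0 UMIs was given a floor of 3 counts. Whole 1 and whole 2 are labelled as replicates and were counted as 2 samples. Their counts differed beyond sampling noise (chi-square of 15.0 per degree of freedom over 15319 genes), so they are not copies of the same counts, which does not show that they came from separate embryos, and p-values measure only the spread between these libraries, which may be technical. Tests used edgeR 4.0.16 (R 4.3.3), with DESeq2 1.42.0 and limma-voom (limma 3.58.1) as alternatives. On simulated data with 200 of 14842 genes changed 4-fold in the E11.5 comparison, edgeR recovered 200 with 15 false calls, DESeq2 195 with 6 and limma-voom 200 with 22. In the real comparison far more genes were called, 26.8% higher and 26.5% lower. The simulated counts therefore do not give the error rate of the real test. Named pathway genes are up to 3 per direction with the largest change among those called, and for each member the 3 genes of highest correlation among genes at 10 CPM or more in a profile. The members and lists were chosen with earlier results of these data known. Proteins of the members were not used here. Levels in some clusters of E12.5 and E13.5 are not reported here.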

Additional observations from a re-analysis of the deposited data

How the results depend on the processing

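Counts of members depended on the settings. In the E11.5 test, 4 instead of 7 members were higher with DESeq2, without the filter on low counts, and with all cells, and 1 instead of 2 was lower against proximal cells only, where *Hey1* turned to 0.37. With all cells *Heyl* turned to -0.35 and *Lfng* to -0.63. Between E11.5 and E13.5, 1 member instead of none was higher and 3 instead of 2 were lower at 1.5-fold or with a 1 CPM filter, and 1 instead of 2 was lower with cells thinned to 3000 UMIs, at least 5000 UMIs per cell or a 5% mitochondrial limit. Between E14.5 and E16.5 proximal, the count higher was 2 with the 1 CPM filter and 0 after thinning, and the count lower was 2 at 1.5-fold, 1 with the 1 CPM filter and 2 with all cells. Between the segments none was lower with all cells or after thinning. The calls lost were those of *Heyl*, which after thinning stayed past 2-fold but missed the filter.

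The log2 ratio of *Heyl* in pericyte-like cells was 4.95 proximally after thinning, against 4.58, and 5.10 distally with single cells called by 3 markers, against 5.54. In whole 1, requiring 2 gate UMIs gave *Lfng* 1.17 in myoblasts, *Hey1* 2.75 and *Hes1* -0.68 in distal cells, and thinning gave *Notch1* 0.83 in myoblasts, *Hey1* 2.55 and *Dll3* -1.15 in distal cells. In whole 2, requiring 2 gate UMIs gave *Hey1* 2.50 and *Hes1* -0.71 in distal cells, and thinning gave *Hes1* -0.51, *Notch1* -1.01 and *Notch2* -0.33. The causes were not tested. Leaving out a whole limb library gave *Dll3* 3.39 to 3.83 and turned no member. No paired analysis was possible because the sorted libraries, set against the whole limbs in the 1 test made, carry no replicate numbers. Gated cells were compared within each whole limb library, with no test across the pair. The gate for apical ridge cells held no cell and gave no value. Levels near 1 CPM rest on few UMIs, which limits the differences that can be detected there.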
